A study of Mus musculus with 6 samples.

Results

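Toll-like receptors, the proteins that present bacterial lipopolysaccharide (LPS) to them and the adaptors that carry their signal were followed through mouse liver by 10 genes: the receptors Tlr2, Tlr3, Tlr4 and Tlr5, the LPS co-receptors Cd14, Ly96 and Lbp, and the adaptors Myd88, Tirap and Ticam1. Members were taken as every probe set whose platform annotation gives exactly 1 of these symbols, which yielded 16 of the 38195 probe sets tested, for 10 of 18029 genes. RNA came from whole liver of C57BL/6 mice, 16 weeks old, after 8 weeks on a high-fat diet begun at 8 weeks of age. The control group (n = 3) carried floxed RECS1 alleles (RECS1-flox) and the other group (n = 3) lacked RECS1 in hepatocytes (RECS1-HKO, here HKO), so other liver cells are not the target of the deletion. The sources used here do not name the Cre line. RECS1 is today called Tmbim1 and encodes a membrane protein of endosomes and lysosomes. The labels call the 3 samples of a genotype biological samples, with 1 array each.

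Toll-like receptors recognise microbial molecules. TLR2 senses bacterial lipoproteins, TLR3 double-stranded RNA, TLR4 LPS and TLR5 flagellin. For TLR4, the serum protein LBP, made by hepatocytes, extracts LPS from bacteria and passes it to CD14, which hands it to the complex of TLR4 and MD-2, the product of Ly96. The receptors then recruit adaptors: TIRAP bridges TLR2 and TLR4 to MyD88, which leads to NF-kB, while TRIF, the product of Ticam1, serves TLR3 and internalised TLR4 and leads to interferon regulatory factors. In liver the sensing cells are largely Kupffer cells, the resident macrophages, and hepatocytes express part of the pathway too.

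The adaptor Myd88 was higher in HKO liver, to 3.25 times the control level (95% interval 2.90 to 3.65), and no other member passed the test. Of the 16 member probe sets 1 rose and 0 fell (limma, Benjamini-Hochberg adjusted p under 0.05 over all 38195 probe sets), against 0.702% of all probe sets called in either direction and 0.367% called higher. At an unadjusted p under 0.05, 5 of the 16 stood out (Myd88, Tlr2, Tlr5 and both probe sets of Tirap), where the share of all probe sets was 11.8%. The members were chosen with earlier results of these data known, so these shares are given as description only. The 15 probe sets that did not pass had log2 differences (HKO minus control) between -0.38 and 0.31. The median over the 16 members was 0.00, as was that over all probe sets. With 3 arrays a group, an exact permutation test of a single gene cannot give a p below 0.1, so p-values come from the model across all probe sets.

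**Figure D1:**
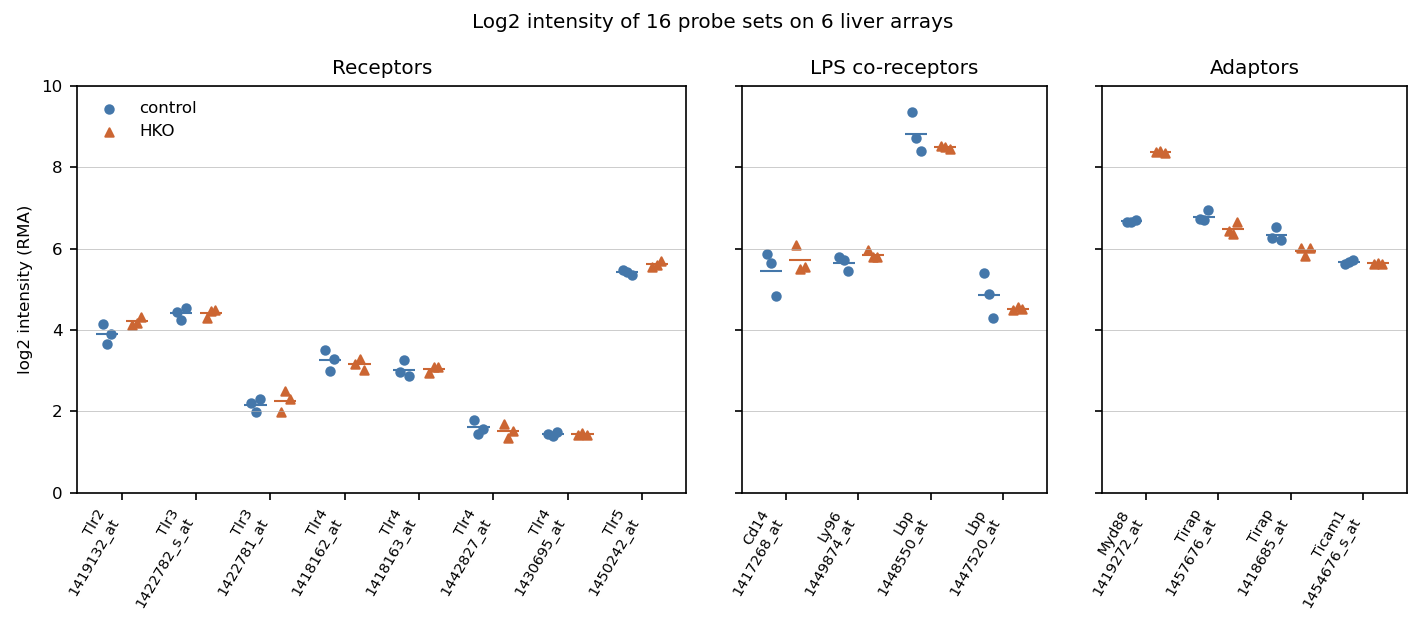
Log2 intensity (RMA, vertical axis) of the 16 probe sets of receptors, LPS co-receptors and adaptors on 6 arrays, with control arrays as circles, HKO arrays as triangles and group means as bars. Myd88 is the probe set whose groups stand far apart, at 6.65 to 6.72 in control and 8.35 to 8.40 in HKO liver.

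Several facts of the whole series bear on these values. The array medians lay between 3.92 and 3.95, and correlations across probe sets were 0.9947 to 0.9959 within a genotype and 0.9913 to 0.9939 across genotypes. Tmbim1 fell from 7.65 ± 0.08 to 7.13 ± 0.07 (log2, mean ± SD, n = 3 each), by 0.52 on the log2 scale (limma, adjusted p = 0.0338), and no HKO array reached a control array. Without any 1 array its adjusted p was 0.0895 to 0.125, and the sources used here do not say whether this probe set covers the deleted exons. In all, 140 probe sets rose and 128 fell. Of 7 measured hepatocyte markers, 0 passed by limma. At an unadjusted p under 0.05, 1 stood out (Hnf4a, at -0.28, limma adjusted p = 0.409), beside 11.8% of all probe sets. The summed log2 level of the 7 markers was 86.2 to 86.4 in control and 85.7 to 86.6 in HKO liver. In whole-liver RNA, fewer cells of a type and less RNA per cell cannot be told apart.

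Among the receptors, no probe set of 8 passed the test. At an unadjusted p under 0.05, 2 stood out, both higher in HKO liver (Tlr2 and Tlr5), beside 11.8% of all probe sets (either direction). Over the 8 probe sets the log2 differences lay between -0.10 and 0.31 with a median of 0.01. Tlr2, the lipoprotein receptor, stood at 4.15, 3.67 and 3.90 (log2 intensity) in controls 1 to 3 and at 4.14, 4.17 and 4.33 in HKO 1 to 3. Control 1 lay level with the HKO arrays, so the groups overlapped. The log2 difference was 0.31 ± 0.12 (SE; 95% interval 0.03 to 0.59; limma, adjusted p = 0.38), and without 1 array it ranged from 0.19 to 0.43.

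Tlr5, the flagellin receptor, read 5.48, 5.43 and 5.34 in the controls and 5.55, 5.60 and 5.69 in HKO liver. The 3 HKO arrays lay above the 3 control arrays by a narrow margin, as did HKO arrays for 7.8% of all probe sets. The log2 difference was 0.20 ± 0.08 (95% interval 0.02 to 0.39; limma, adjusted p = 0.384). A fold change above 1.31 for Tlr5, or above 1.51 for Tlr2, lies outside the intervals. The control mean of Tlr2 (3.90) was just below the median probe set (3.94), and RMA shrinks the differences of dim probe sets. Its interval therefore bounds the change in array values only.

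Tlr3, the double-stranded RNA receptor, has a pair of probe sets. The brighter, 1422782_s_at, whose suffix in the Affymetrix naming scheme marks probes shared by several transcripts, read 4.44, 4.24 and 4.55 in the controls and 4.29, 4.47 and 4.48 in HKO liver. Its groups overlapped fully, and the log2 difference was 0.00 ± 0.10 (95% interval -0.23 to 0.24; limma, adjusted p = 0.994). The dimmer probe set, 1422781_at, stood at 0.10 ± 0.14 (log2 difference; limma, adjusted p = 0.843), with a mean below the median probe set (3.94). Over the 6 arrays the 2 probe sets of Tlr3 had a Pearson r of 0.84, a description of probe sets that share their arrays and gene.

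Tlr4, the LPS receptor, was read by 4 probe sets, all dimmer than the median probe set, where RMA shrinks fold changes. The brightest, 1418162_at, read 3.50, 2.99 and 3.28 in the controls and 3.17, 3.30 and 3.01 in HKO liver, with the arrays of both groups intermixed. Its log2 difference was -0.10 ± 0.13 (95% interval -0.41 to 0.20; limma, adjusted p = 0.829). The other Tlr4 probe sets stood at 0.02 (1418163_at), -0.08 (1442827_at) and -0.01 (1430695_at), and all 4 changed sign when some 1 array was left out. The 2 brightest probe sets did not follow each other over the 6 arrays (Pearson r -0.62). For the 4 probe sets the intervals reach from -0.41 to 0.27 on the log2 scale.

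**Figure D2:**
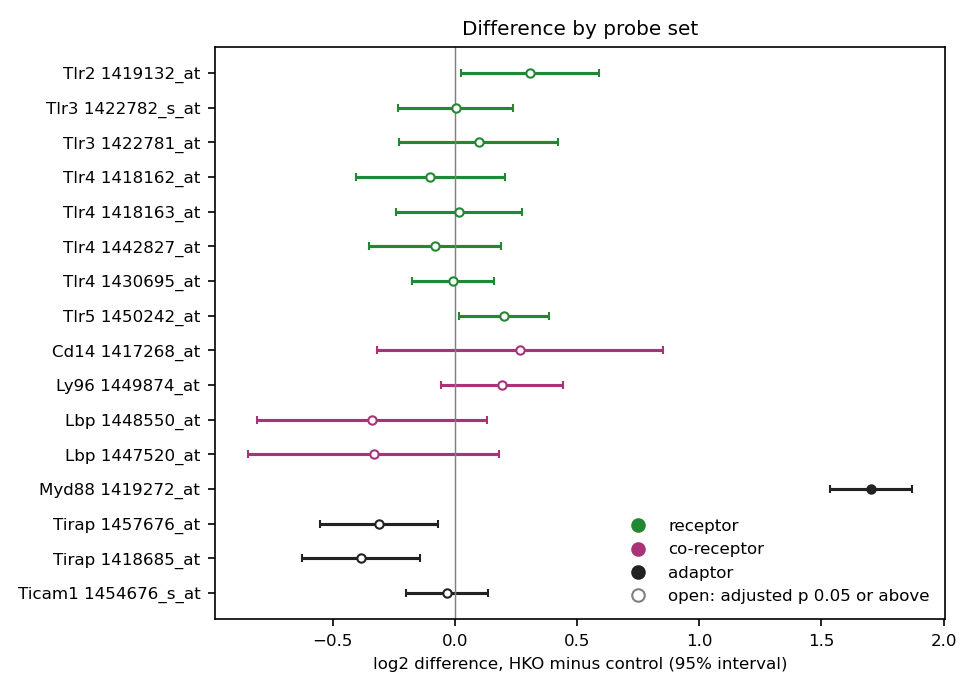
Log2 difference (HKO minus control, horizontal axis) with its 95% interval from limma for each member probe set, coloured by role, filled where the adjusted p is under 0.05. Myd88 stands at 1.70, and the other 15 points lie between -0.38 and 0.31.

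Among the LPS co-receptors, no probe set of 4 passed the test and none had an unadjusted p under 0.05. Cd14 and Lbp varied more between animals than nearly all probe sets, with residual SDs at percentiles 98.2 to 99.2 of all probe sets. Cd14, the LPS receptor anchored to the myeloid cell surface, read 5.87, 5.64 and 4.84 in the controls and 6.08, 5.50 and 5.56 in HKO liver. Control 3 was the low array, and the other 5 arrays lay between 5.50 and 6.08. The log2 difference was 0.27 ± 0.26 (95% interval -0.32 to 0.85; limma, adjusted p = 0.749), and without control 3 it was -0.04.

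Ly96, which encodes the LPS-binding partner of TLR4, read 5.80, 5.73 and 5.45 in the controls and 5.97, 5.80 and 5.79 in HKO liver. Here too control 3 was lowest, and the groups met at 5.80. The log2 difference was 0.19 ± 0.11 (95% interval -0.06 to 0.44; limma, adjusted p = 0.553) and 0.09 without control 3.

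Lbp, the acute-phase LPS carrier of hepatocytes, was bright in its probe set 1448550_at (percentile 95.1 of all probe sets), which read 9.37, 8.71 and 8.40 in the controls and 8.53, 8.49 and 8.45 in HKO liver. Control 1 was high, and the HKO arrays lay within the control range. The other probe set, 1447520_at, had the same shape at 5.40, 4.88 and 4.30 in the controls and 4.49, 4.57 and 4.52 in HKO liver. The SDs were 0.49 and 0.55 in the controls against 0.04 for both probe sets in HKO liver, and the pair had a Pearson r of 0.97 over the 6 arrays. The log2 differences were -0.34 ± 0.21 and -0.33 ± 0.23 (limma, adjusted p = 0.59 and 0.631). Without control 1 they were -0.07 and -0.06, and without control 3 -0.55 and -0.61.

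Markers of the cells that carry these receptors were measured beside them. Of 13 macrophage and Kupffer cell markers, 0 passed by limma and 1 had an unadjusted p under 0.05 (Cd163, at -0.48, adjusted p = 0.0616). Their summed log2 level was 95.9 to 104.3 in control and 98.8 to 103.6 in HKO liver, with control 1 and HKO 2 highest. The defining markers Adgre1 and Clec4f were well above the median probe set on every array, at 5.96 to 7.11 and 8.03 to 8.81. Their log2 differences were 0.36 and -0.18, and of the 13 markers 8 had positive and 5 negative differences. Marco had the largest (1.03; limma, adjusted p = 0.63) and varied most. It read 4.79 to 6.34 in control and 5.07 to 8.11 in HKO liver, with HKO 2 highest. Of 7 measured neutrophil markers 0 passed and 0 had an unadjusted p under 0.05, and their sum was 33.4 in control 1 and 27.1 to 29.4 on the other 5 arrays. The neutrophil genes S100a8 and S100a9 stood at 6.30 and 6.17 in control 1 and at no more than 4.61 and 4.66 elsewhere. Control 1 is also the array with high Lbp, and the part of these cells in the Lbp and Cd14 values was not tested. Of 6 monocyte and dendritic cell markers 0 passed, with Ccr2 at -0.36 (unadjusted p = 0.0068, limma adjusted p = 0.218). Of 4 cholangiocyte markers 0 passed by limma and 1 had an unadjusted p under 0.05 (Sox9, at -0.66, adjusted p = 0.183). All 4 had negative differences, 3 are dimmer than the median probe set, and their sums did not overlap, at 14.4 to 14.8 in control and 13.0 to 13.8 in HKO liver. The part of these cells in the members' values was not tested. No marker passed in the lymphocyte (8 measured), endothelial (6) and stellate cell (6) lists, where 0 had an unadjusted p under 0.05 and the sums of the groups overlapped. Over all single probe sets, 11.8% had an unadjusted p under 0.05 and 16.9% had groups that do not overlap.

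The adaptors held the change that passed and also, in a probe set of Tirap that did not pass, the lowest difference among the members. Of their 4 probe sets 1 rose and 0 fell, and 3 had groups that do not overlap (1 higher, 2 lower in HKO), where 16.9% of all probe sets had such groups. Myd88, the adaptor shared by the Toll-like receptors other than TLR3 and by the interleukin-1 receptors, read 6.65, 6.66 and 6.72 in the controls and 8.37, 8.40 and 8.35 in HKO liver. The 3 HKO arrays lay close together and far above the 3 control arrays. The log2 difference was 1.70 ± 0.07 (95% interval 1.53 to 1.87; limma, adjusted p = 1.4e-05), from 6.67 ± 0.04 to 8.37 ± 0.03 (mean ± SD, n = 3 each).

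This difference ranked 10th of 38195 by p. In all 61 probe sets (0.16%), Myd88 included, had a log2 difference of that size or more in either direction. The residual SD of Myd88 was 0.033, at percentile 1.81 of all probe sets, against a median of 0.119. The difference was 1.69 to 1.72 without any 1 array, with adjusted p from 0.000165 to 0.000391. The platform annotation gives Myd88 only 1 probe set here, so no further probe set was available to set beside it, and the sources used here do not give the part of the transcript it reads.

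**Figure D3:**
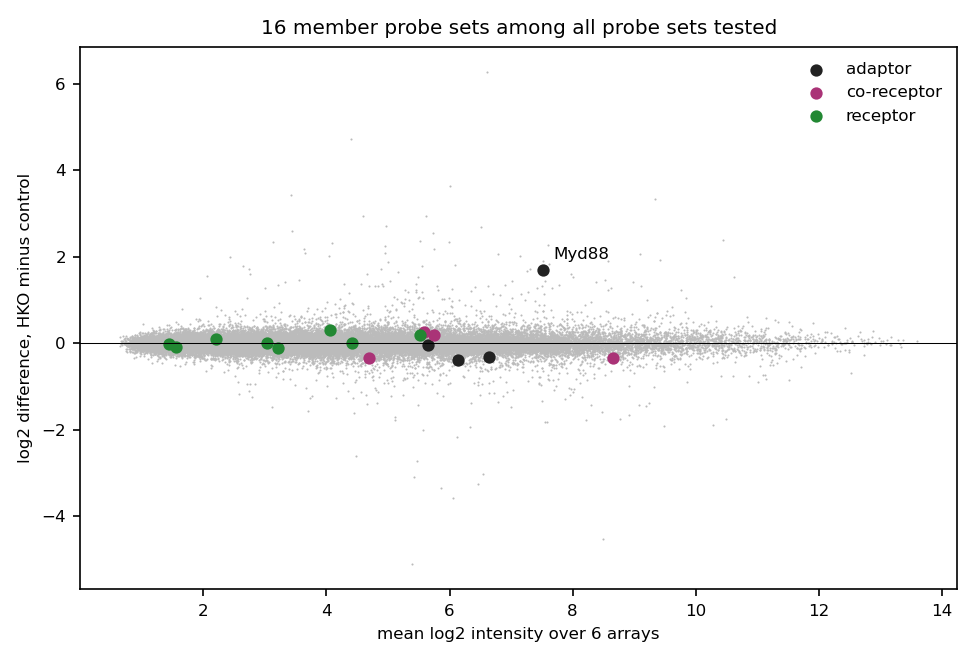
Mean log2 intensity over 6 arrays (horizontal axis) against the log2 difference, HKO minus control (vertical axis), for all 38195 probe sets in grey and the 16 members coloured by role. Myd88, at 1.70, lies outside the grey band that holds the other 15 members.

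Tirap, the bridging adaptor of TLR2 and TLR4, had lower values in HKO liver by both of its probe sets, without passing the test. Probe set 1457676_at read 6.73, 6.70 and 6.94 in the controls and 6.44, 6.35 and 6.65 in HKO liver, and 1418685_at read 6.27, 6.53 and 6.21 against 6.02, 5.82 and 6.01. In both probe sets the 3 HKO arrays lay below the 3 control arrays, as they did for 9.15% of all probe sets. The log2 differences were -0.31 ± 0.11 and -0.38 ± 0.11 (limma, adjusted p = 0.298 and 0.209), which correspond to 0.806 and 0.767 times the control level. By the median of both probe sets on each array the difference was -0.35 ± 0.08 (limma over 18029 genes, adjusted p = 0.135). Both probe sets kept their sign in each of their 12 refits.

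Ticam1, which encodes the adaptor TRIF, read 5.62, 5.67 and 5.72 in the controls and 5.63, 5.65 and 5.63 in HKO liver, so the HKO arrays lay inside the control range. The log2 difference was -0.03 ± 0.07 (95% interval -0.20 to 0.13; limma, adjusted p = 0.906). Its residual SD was 0.034, close to that of Myd88, and a fold change outside 0.871 to 1.10 lies beyond the interval. The only probe set of Ticam1 here is 1454676_s_at, whose suffix marks probes shared by several transcripts.

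Promoter sequences of RefSeq (GRCm38.p6; 250 bases before and 50 after each annotated start) were matched for 6 of the 10 members, in 7 windows, and are shown for the 3 adaptors, of which Myd88 passed the test and Tirap and Ticam1 did not, and for Tlr2 as a receptor with an NF-kB motif. Searched on both strands were GGGANNNNCC, a form of the NF-kB motif, GAAANNGAAA, the core of the interferon-stimulated response element, and TTCNNNGAA, the STAT (GAS) motif. Matches are in capitals, and the windows lie at chr9:119339969-119340268 (reverse strand) for Myd88, chr9:35199856-35200155 (reverse strand) for Tirap, chr17:56276718-56277017 (reverse strand) for Ticam1 and chr3:83841559-83841858 (reverse strand) for Tlr2.
Myd88: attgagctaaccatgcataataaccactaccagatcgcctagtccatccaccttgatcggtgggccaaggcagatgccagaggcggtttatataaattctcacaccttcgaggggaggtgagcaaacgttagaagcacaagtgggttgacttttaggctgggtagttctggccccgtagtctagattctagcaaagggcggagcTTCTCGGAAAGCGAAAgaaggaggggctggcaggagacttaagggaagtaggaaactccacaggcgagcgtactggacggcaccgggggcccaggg
Tirap: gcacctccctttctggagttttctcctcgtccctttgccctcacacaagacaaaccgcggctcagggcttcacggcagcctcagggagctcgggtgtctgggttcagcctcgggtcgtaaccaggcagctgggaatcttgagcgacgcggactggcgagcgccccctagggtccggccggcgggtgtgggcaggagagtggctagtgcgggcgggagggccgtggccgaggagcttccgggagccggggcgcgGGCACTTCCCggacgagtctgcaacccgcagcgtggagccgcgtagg
Ticam1: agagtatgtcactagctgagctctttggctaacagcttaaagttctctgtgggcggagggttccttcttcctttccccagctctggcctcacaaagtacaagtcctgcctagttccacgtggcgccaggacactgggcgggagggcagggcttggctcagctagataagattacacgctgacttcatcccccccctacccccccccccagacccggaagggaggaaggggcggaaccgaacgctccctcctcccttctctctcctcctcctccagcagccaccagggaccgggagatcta
Tlr2: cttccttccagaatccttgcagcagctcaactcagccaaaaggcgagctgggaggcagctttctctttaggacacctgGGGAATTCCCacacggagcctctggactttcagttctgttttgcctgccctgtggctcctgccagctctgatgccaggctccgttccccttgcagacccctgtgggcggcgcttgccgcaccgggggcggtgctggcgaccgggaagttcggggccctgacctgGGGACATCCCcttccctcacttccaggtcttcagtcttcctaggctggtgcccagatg

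The Myd88 window holds TTCTCGGAA and GAAAGCGAAA, which begin 46 and 40 bases before the start and overlap, and no match to the NF-kB letters. The interferon-response letters occur in 3.44% of the 32851 promoter windows, the STAT letters in 8.3% and the NF-kB letters in 20.7%. The Tirap window shown holds 1 NF-kB match just after its start, the second Tirap window, which overlaps it, holds none, and Ticam1 has no match to any of the 3. Tlr2 holds the NF-kB letters at 2 places, of which GGGAATTCCC lies 172 bases before the start, Tlr3 at 3 places and Tlr5 at 1. Of the other genes looked up, Rela, which rose, has 1 NF-kB match and no other. Irf7, which rose too, has no match to any of the 3, and Tmbim1, which fell, has the STAT letters. Beside Myd88, only Rela and Irf7 among the risen genes were looked up, so the letters were not compared over the other risen genes. A match is a description of letters, and no binding was measured.

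The rest of the pathway was read from a list of 48 other genes, of which 39 were measured by 84 probe sets. Of these genes 3 rose and 0 fell, and 36 did not pass. The calls were 5 probe sets, 3 of them of Cd36, or 5.95% of the 84, beside 0.702% of all probe sets called. The median log2 difference over the 84 was -0.01. The list was chosen with earlier results of these data known, so its called share is given as description only. Rela, the p65 subunit of NF-kB downstream of MyD88, read 7.53, 7.66 and 7.64 in the controls and 9.54, 9.48 and 9.56 in HKO liver (log2 difference 1.91 ± 0.08; limma, adjusted p = 1e-05). Irf7, the interferon regulatory factor that binds MyD88 below the endosomal receptors, read 6.43, 6.38 and 6.58 against 8.67, 8.86 and 8.67 (2.27 ± 0.09; 1e-05). As for Myd88, no HKO array came within a log2 unit of a control array in either gene. As for Myd88 too, no further probe set of Rela or Irf7 was available to set beside the one read.

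Cd36, a fatty acid transporter that also serves TLR2 as a lipoprotein co-receptor, was the third. Its 3 probe sets rose by 1.81 ± 0.19, 1.61 ± 0.20 and 1.72 ± 0.24 (log2; limma, adjusted p = 0.00465, 0.0106 and 0.023). Probe sets 1423166_at and 1450883_a_at no longer passed without control 2, control 3 or HKO 1 (adjusted p 0.0528 to 0.112), while 1450884_at passed in each of the 6 fits without 1 array.

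The other genes of the list stayed short of the threshold, the nearest being interferon regulatory factors. Irf5, which also acts below MyD88, had a log2 difference of -0.61 ± 0.15 (limma, adjusted p = 0.152). Blocking on the replicate number gave Irf5 a limma adjusted p of 0.0432. The 3 HKO arrays of Irf5 lay below its control arrays, as HKO arrays did for 9.15% of all probe sets. Irf3, which acts below TRIF, had differences of -0.24 and -0.25 in its brighter probe sets (limma, adjusted p = 0.263 and 0.29). The other Irf3 probe sets stood at -0.16 and -0.03 (limma, adjusted p = 0.802 and 0.962). The kinase gene Map3k8 stood at -0.31 (limma, adjusted p = 0.319) and the ubiquitin ligase gene Traf6 at 0.31 (0.334). The transcription factor gene Atf3 stood at 0.39 (0.366) and Tlr1, the partner of TLR2, at 0.33 (0.42). These probe sets of Traf6, Atf3 and Tlr1 were dimmer than the median probe set. For Traf6 the 4 other probe sets stood between -0.18 and 0.15.

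**Figure D4:**
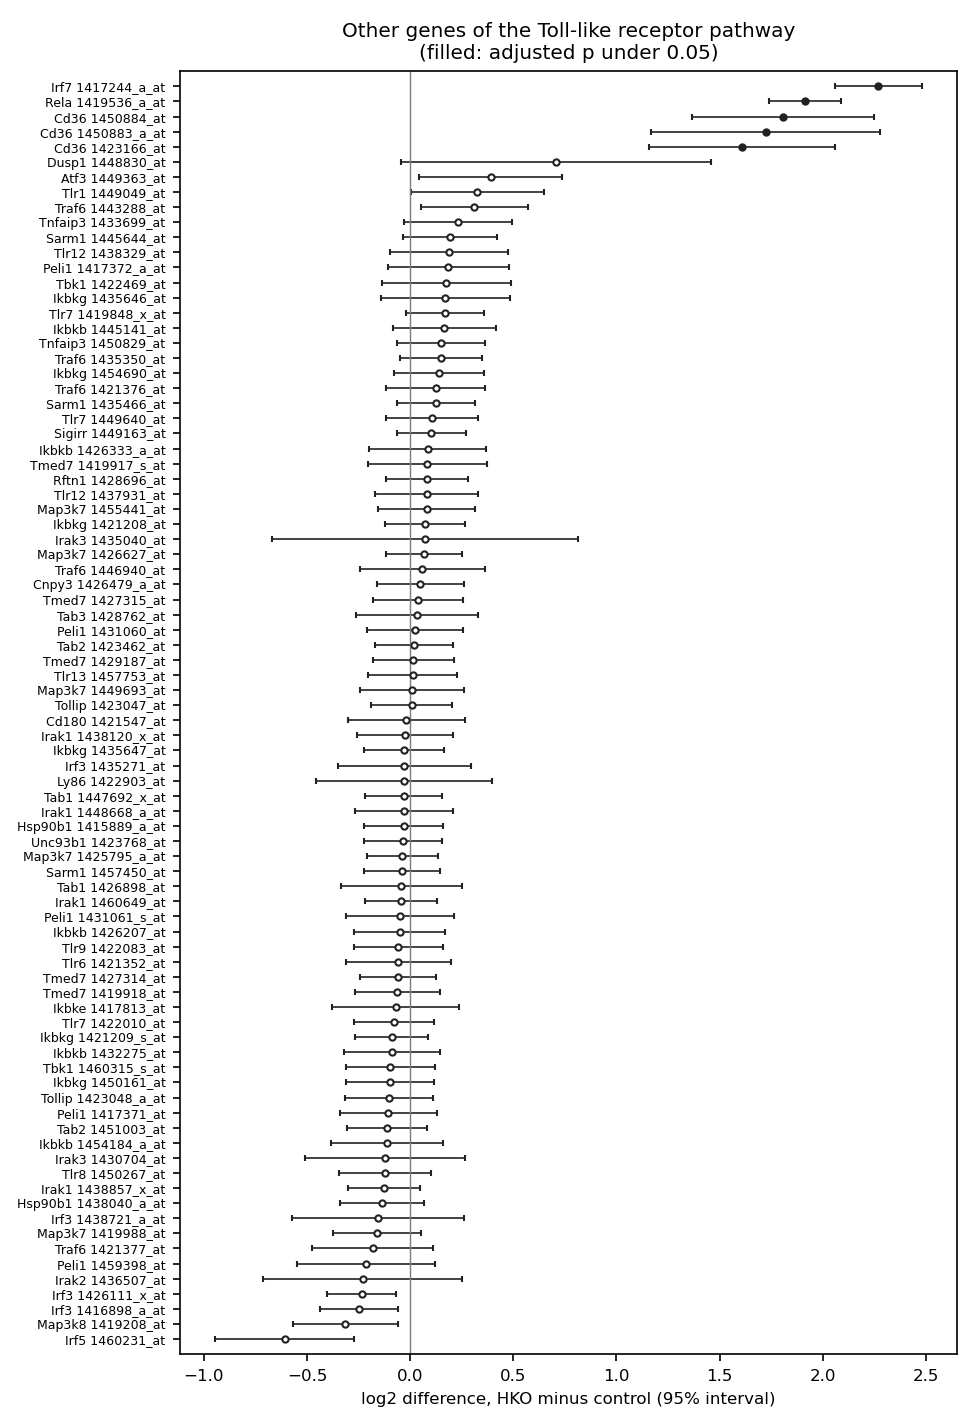
Log2 difference (HKO minus control, horizontal axis) with its 95% interval from limma for the 84 probe sets of 39 other pathway genes, sorted by value, filled where the adjusted p is under 0.05. The filled points, Irf7, Rela and Cd36, lie between 1.61 and 2.27, and the open points between -0.61 and 0.71.

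The probe sets most like Myd88 were taken by the Euclidean distance, over the 6 arrays, of log2 values less the control mean, among probe sets of other genes. The 8 nearest were those of Vldlr, a lipoprotein receptor (distance 0.21 log2 units), Ptgs2, which encodes cyclooxygenase-2 (0.28), Wdfy1, a phosphoinositide-binding protein described as bringing TRIF to TLR3 and TLR4 (0.29), the chemokine Ccl4 (0.33), Rela (0.39), the chemokine Ccl3 (0.41), Il12a, the p35 subunit of interleukin-12 (0.42), and the chemokine Cxcl9 (0.56). Each had a Pearson r with Myd88 of at least 0.98, a description over 6 arrays in which the difference between the genotypes makes nearly all of the variation. Their log2 differences ran from 1.47 to 1.91.

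Of these 8 genes, 4 have further probe sets, 11 in all, of which 4 passed the test. The other probe set of Ptgs2 stood at 0.08 (log2 difference; limma, adjusted p = 0.776) and that of Cxcl9 at -0.01 (0.985). Those of Vldlr lay between 0.28 and 2.02, and those of Wdfy1 between -0.77 and 1.25. Il12a, Ccl3, Vldlr and Ptgs2 have control means of the nearest probe set below the median probe set (3.94), so their differences start from dim values. The HKO means of Ccl3 (3.56), Vldlr (3.60) and Ptgs2 (2.84) lie below it too, while that of Il12a is 4.28.

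**Figure D5:**
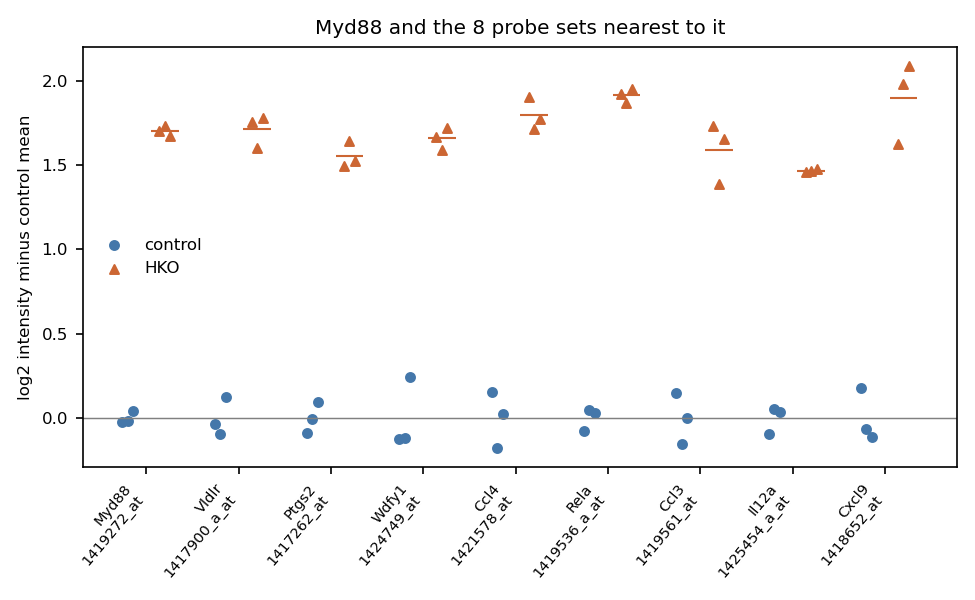
Log2 intensity less the control mean (vertical axis) of Myd88 and the 8 nearest probe sets of other genes on each of the 6 arrays, with control arrays as circles, HKO arrays as triangles and HKO means as bars. The HKO means lie between 1.47 and 1.91.

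The same question was asked of the members that varied between animals, by Pearson r among probe sets above the median brightness. Lbp was followed most closely by Scrt2, Rpp21 and Elac2 (r 0.996, 0.996 and 0.991), Cd14 by Stxbp5l, Btbd1 and Fam107b (0.995, 0.991 and 0.977), and Tlr2 by Filip1l, Trappc4 and Gnaq (0.995, 0.992 and 0.990). These are the highest r among many probe sets over 6 arrays, and are given as description only. None of these 9 probe sets passed the test between the genotypes, and their log2 differences lay between -0.14 and 0.26.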

How the data were processed

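Total liver RNA (400 ng, Trizol) was made into biotin-labelled cRNA, per the labels' protocols. The deposited values are log2 intensities. RMA and limma are the tools named in the submitters' processing notes, and the sources used here give no version or setting. RMA makes the arrays' distributions alike, which hides any change common to all transcripts, and shrinks the differences of dim probe sets. Of 38208 probe sets, 13 Affymetrix controls were left out, 34325 have 1 gene symbol, 62 several and 3808 are unnamed here.

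Each of the 38195 probe sets was tested on its own with limma 3.58.1 under R 4.3.3 (two-sided moderated test from lmFit and eBayes, genotype the only term, Benjamini-Hochberg adjustment, threshold 0.05), since members are defined as all probe sets of 10 genes. No value was filtered out, so all 16 member probe sets were tested. The number of arrays limits the precision. Named were all members, the called pathway probe sets with the 6 other genes of lowest p, and the probe sets most like Myd88, Lbp, Cd14 and Tlr2. Marker lists used the brightest probe set of each gene. Members and lists were chosen with earlier results of these data known. Alternatives were other normalizations, filters, variance models and array weights, a block on the replicate number, 1 value a gene, other thresholds and leaving out each array. The limma fit was tested on simulated data, with added differences larger than those of every member other than Myd88. The other steps were not tested in this way. No 2 arrays held identical values. Of the pathway list, 9 genes were not analysed here.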

Additional observations from a re-analysis of the deposited data

How the results depend on the processing

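Myd88 passed in each of the 12 refits (6 without 1 array, 6 with other settings), with log2 differences from 1.69 to 1.72, and it was the only member gene called under each of the 3 ways of taking 1 value a gene and at each threshold. The other 15 member probe sets passed in none of their refits. Of the 187 refitted member values 172 kept their sign and their side of the threshold, and 15 changed sign. Sign changes occurred without 1 array in Cd14 (log2 difference -0.039 to 0.476), in both Tlr3 probe sets (-0.082 to 0.073 for 1422782_s_at, -0.024 to 0.241 for 1422781_at) and in the 4 Tlr4 probe sets (-0.232 to 0.021 for 1418162_at, -0.066 to 0.134 for 1418163_at, -0.166 to 0.013 for 1442827_at, -0.030 to 0.0099 for 1430695_at). With array weights, Tlr4 1418163_at stood at -0.0084. The 15 values that changed sign lay between -0.082 and 0.021, and the cause was not tested. Cd36 1450883_a_at did not pass with the trend and robust options (adjusted p = 0.0911).

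The count of all 268 called probe sets fell to between 87 (without HKO 1) and 197 (without HKO 2) when 1 array was left out, with 132, 107 and 113 without control 1, 2 and 3 and 129 without HKO 3. It was 83 at a threshold of 0.01 and 468 at 0.1. The 5 called pathway probe sets numbered 3 to 5 without 1 array (3 without control 2, control 3 or HKO 1) and 3 at a threshold of 0.01. With the replicate number as a block, 221 probe sets passed, 7 pathway probe sets among them. Of these, 1 was lower, that of Irf5, and 6 were higher: the 5 of the main fit and a further probe set not named here. Under the block Myd88 stayed at 1.70 (limma, adjusted p = 0.000386), and Tmbim1 no longer passed (0.086). Deviations of same-numbered arrays had correlations from -0.08 to 0.10, and the number of arrays that correlated best with their own number was 3 of 6, so the numbers were not taken to pair the animals. The brightness filter leaves out 5 dim probe sets of Tlr3 and Tlr4, which have no value there.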
